A study of Mus musculus with 6 samples.

Results

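The Sox factors of glial and neural progenitors followed here are 10 genes, namely Sox2 and Sox21 (SoxB), Sox4, Sox11 and Sox12 (SoxC), Sox5 and Sox6 (SoxD), and Sox8, Sox9 and Sox10 (SoxE). They were chosen by name for their known parts in such progenitors, with earlier results of these data known. Their probes were found through the RefSeq accession that each array spot carries. All 10 were on the array, with 17 probes among them, out of 22907 genes that could be named. Of these, 9 were bright enough to enter the comparison, out of 14894 genes tested, and Sox11 was not.

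The study compared 2 derivatives of OS3, an SV40-immortalised line of brain glial cells from newborn male C3H/HeN mice that has been described as a bipotential glial progenitor. WT cells carried an empty vector and IG27 cells carried a pcDNA3.1 plasmid for H3f3a with the K27M mutation, in which a lysine in the tail of histone H3.3 is replaced by methionine, as in diffuse midline gliomas. Both were grown for 2 days in MEM-α with 10% serum, insulin and glucose before RNA was hybridised to 1-colour mouse arrays, with 3 arrays per group. IG27 arose by transfection and drug selection of clones, so that differences due to the mutation and differences between selected clones cannot be told apart. Nothing in the labels says whether the 3 samples of a group were separate cultures, and p-values measure only the spread between these samples.

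Sox proteins bind DNA through an HMG box, a domain that recognises short sequences such as ACAAAG in the minor groove and bends the DNA, and they usually act together with a partner factor. SoxB1 proteins such as Sox2 keep neural progenitors undifferentiated, and the SoxB2 protein Sox21 counteracts them. SoxC proteins are known for the later steps of neuronal differentiation. Among SoxE proteins, Sox9 is needed for the onset of gliogenesis and Sox10 for oligodendrocyte and Schwann cell differentiation, while the SoxD proteins Sox5 and Sox6 lack an activation domain of their own and modify what SoxE proteins do.

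Promoter windows of 300 bases, from 250 bases before to 50 bases after an annotated start, were taken from RefSeq (mouse build GRCm38.p6) and were given for 8 of the 10 genes. The sequences of 2 genes that were lower in IG27 (Sox2, Sox21) and 2 that were higher (Sox5, Sox8) are shown because in each pair one window holds a Sox-type motif and the other does not. Capitals mark any of 3 motifs on either strand, namely ACAAAG, the related ACAATG, and AACAAT, which can overlap the second motif.
Sox2, chr3:34649745-34650044, plus strand: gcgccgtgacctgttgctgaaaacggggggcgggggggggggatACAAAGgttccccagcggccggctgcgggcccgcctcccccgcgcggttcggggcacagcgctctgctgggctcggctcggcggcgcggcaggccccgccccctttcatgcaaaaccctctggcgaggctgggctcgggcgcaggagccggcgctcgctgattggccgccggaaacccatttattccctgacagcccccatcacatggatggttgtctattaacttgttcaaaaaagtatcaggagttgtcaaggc
Sox21, chr14:118236981-118237280, minus strand: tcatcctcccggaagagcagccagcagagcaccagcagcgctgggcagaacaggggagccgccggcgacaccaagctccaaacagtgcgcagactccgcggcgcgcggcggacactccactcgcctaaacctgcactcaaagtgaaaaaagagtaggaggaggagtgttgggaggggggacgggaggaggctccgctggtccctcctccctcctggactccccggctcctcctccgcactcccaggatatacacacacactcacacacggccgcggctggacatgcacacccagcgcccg
Sox5, chr6:143947057-143947356, minus strand: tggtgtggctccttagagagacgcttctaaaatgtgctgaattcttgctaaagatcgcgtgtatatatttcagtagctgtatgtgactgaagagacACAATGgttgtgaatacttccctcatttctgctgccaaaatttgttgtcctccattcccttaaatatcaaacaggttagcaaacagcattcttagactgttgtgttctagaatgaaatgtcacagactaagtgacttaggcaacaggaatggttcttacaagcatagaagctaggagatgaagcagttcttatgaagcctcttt
Sox8, chr17:25570637-25570936, minus strand: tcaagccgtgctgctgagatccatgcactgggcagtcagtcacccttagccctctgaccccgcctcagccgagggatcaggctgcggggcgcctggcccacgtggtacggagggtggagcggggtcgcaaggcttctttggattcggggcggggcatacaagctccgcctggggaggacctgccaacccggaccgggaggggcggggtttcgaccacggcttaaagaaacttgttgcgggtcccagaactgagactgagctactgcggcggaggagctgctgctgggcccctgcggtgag
The Sox2 window held 1 ACAAAG, the Sox5 window held 1 ACAATG, and the Sox21 and Sox8 windows held none of the 3 motifs. The start in the Sox5 window lies 835 kb downstream of the 5′ end of the gene, so it is an internal start. Over all 32851 windows of this length, ACAAAG was present in 18.7%, ACAATG in 12.6%, AACAAT in 10.72% and at least 1 of them in 33.2%. Among the 8 genes with windows, only Sox2, Sox5 and Sox6 had a motif, Sox6 in 5 of its 6 windows. GC content was 66.3% in the Sox2 window and 65.7% in the Sox21 window, against 39.7% in the Sox5 window and a median of 52.7% over all windows. A motif match is a feature of the letters only and was not tested for binding.

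Signals were expressed as log2 intensity minus the 75th percentile of the array, so that 0 is that percentile and low negative values lie near background. The expressed histone gene, H3f3a, read 6.96, 6.70 and 6.85 in WT and 6.61, 6.52 and 6.61 in IG27 (log2 fold change -0.26, SE 0.08, adjusted p = 0.0237), a call that was lost in 9 of 17 other settings, among them without WT replicate 1 (-0.20) or 3 (-0.25) and without any 1 IG27 replicate (-0.27 to -0.23). Whether this probe reads the plasmid's RNA is not known, so it does not check the labels. Between 33294 and 34633 of 56605 probes (58.8% to 61.2%) were well above background on the 5 arrays with flags, and no spot was saturated. The 2 lines differed widely: limma called 10498 of 14894 genes (70.5%) at an adjusted p under 0.05, 4544 of them higher in IG27 (30.5%) and 5954 lower (40%), with a median log2 fold change of -0.07. WT replicate 2 and all IG27 arrays lay in 1 row of the slide and the other two WT arrays in the other row, so fits that allow for the row compare IG27 with WT replicate 2 only.

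Of the 9 Sox genes tested, 3 were higher in IG27 (Sox5, Sox8, Sox9) and 6 were lower (Sox2, Sox21, Sox4, Sox12, Sox6, Sox10), so that 9 of 9 passed, against 70.5% of all genes. In all 9 the values of the 2 lines were fully separated, which held for 75.7% of all genes. By the brightest probe of each gene, none of the 9 reached a log2 fold change of 1 in size, whereas 23.5% of all genes did. Dimmer probes of Sox5 and Sox9 did, and so did Sox5 by the mean of its probes. The median size of the log2 fold change was 0.54 in the 9, by their brightest probes, and 0.47 over all genes. By the brightest probe, 4 of the 9 (Sox2, Sox21, Sox8, Sox9) changed at least 1.5-fold. Sox8 changed least of these 4, and 58.7% of all genes tested changed less than it did, so changes of this size were common. The median log2 fold change over the 9 was -0.28. The calls of Sox2, Sox21, Sox5, Sox8, Sox9 and Sox10 kept their direction and stayed under 0.05 in 17 of 17 other settings. Not all of these are independent checks, since the unadjusted p only loosens a call. Probe means leave the fold changes of Sox2, Sox21 and Sox10 as they were, as these genes had no other probe.

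**Figure D1:**
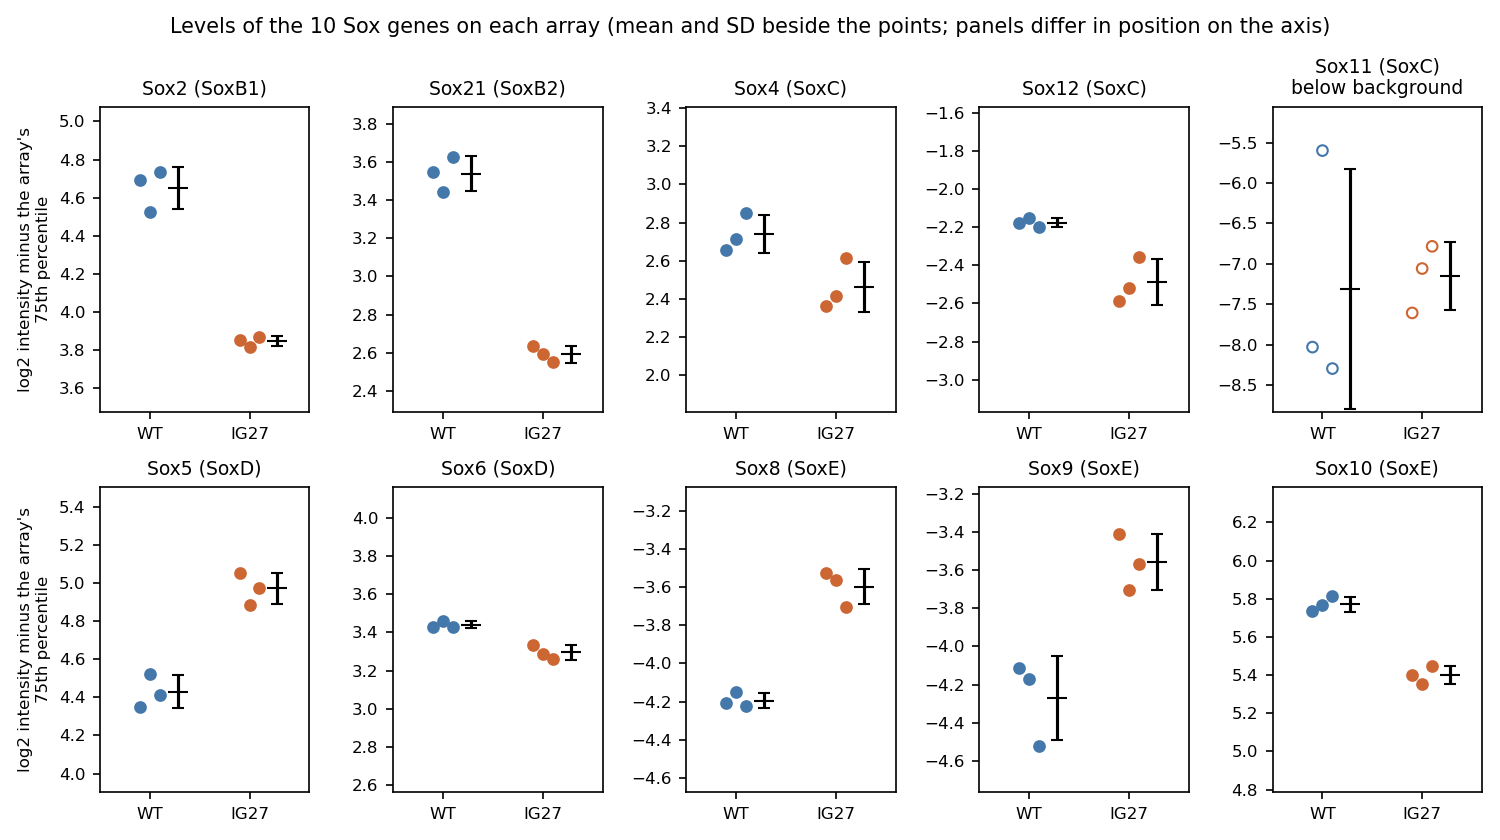
Level of each of the 10 Sox genes on each array, as log2 intensity minus the array's 75th percentile (vertical axis), with the mean and SD of 3 arrays beside the points. The WT (blue) and IG27 (orange) arrays do not overlap in the 9 tested genes, and the open circles show the brighter Sox11 probe, which was not well above background on any flagged array.

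The 2 SoxB genes fell. Sox2, the pluripotency and neural stem cell factor on chromosome 3, stood at 4.69, 4.53 and 4.73 in WT and at 3.85, 3.82 and 3.87 in IG27. All 3 IG27 arrays lay below the lowest WT array, and the log2 fold change was -0.80 (SE 0.07, adjusted p = 7.72e-05), a decrease of 1.75-fold. Sox21, on chromosome 14, read 3.55, 3.44 and 3.63 in WT and 2.63, 2.59 and 2.55 in IG27. The groups were again apart, with a log2 fold change of -0.95 (SE 0.06, adjusted p = 2.92e-05), which corresponds to a decrease of 1.93-fold and was the largest change in size among the 9 tested genes by their brightest probes, whereas Sox5 changed by 1.12 with the mean of its probes. The log2 ratio of Sox2 to Sox21 changed by 0.14, with arrays that did not overlap and an exact two-sided permutation p of 0.1, the smallest that 3 arrays against 3 allow.

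At the Sox2 locus, the noncoding RNA Sox2ot, whose annotated span overlaps Sox2, was lower to a greater extent than Sox2 itself. Its brighter probe read 3.19, 3.16 and 3.11 in WT and 0.79, 0.80 and 0.82 in IG27 (log2 fold change -2.35, SE 0.05, adjusted p = 2.06e-07). The second Sox2ot probe gave -2.25, and both probes separated the groups completely. The gene on the other side of Sox2, Gm3143, was also lower (-0.56, adjusted p = 0.0319), but that call was lost without any 1 of the 3 WT replicates (-0.60 to -0.48). Gm3143 was read near background, with a mean of -5.47 in WT and -6.02 in IG27. Its difference was -0.0044 with normexp background correction, whose offset of 50 shrinks log2 differences between dim signals. Sox1ot, the RNA annotated at the Sox1 locus, was higher (0.81, SE 0.15, adjusted p = 0.00354), as was Sox1 below. It was read close to background, with a mean of -4.89 in WT and -4.07 in IG27. Sox5os3 was not well above background on any flagged array.

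Both SoxC genes above background were lower, by small amounts. Sox4, a factor of immature neurons and of many tumours, read 2.66, 2.71 and 2.85 in WT and 2.36, 2.42 and 2.61 in IG27. The highest IG27 array lay just under the lowest WT array, and the log2 fold change was -0.28 (SE 0.09, adjusted p = 0.0300). This call was lost without WT replicate 2 (-0.29), WT replicate 3 (-0.22), IG27 replicate 1 (-0.22) or IG27 replicate 2 (-0.25), and with quantile normalization the difference was -0.14 (adjusted p = 0.214). Sox12 was a dimmer gene, at -2.18, -2.15 and -2.20 in WT and -2.59, -2.52 and -2.35 in IG27. Its groups were apart (log2 fold change -0.31, SE 0.07, adjusted p = 0.00781), but with normexp background correction the difference was -0.17 and did not pass (adjusted p = 0.152). The offset of that setting shrinks log2 differences of dim genes. Sox11, the third SoxC gene, had 2 probes that were not well above background on any flagged array. They read between -8.30 and -5.60 in WT and between -7.69 and -6.78 in IG27, with overlapping groups, and no fold is given.

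The 2 SoxD genes moved apart. Sox5, on chromosome 6, stood at 4.35, 4.52 and 4.41 in WT and at 5.05, 4.89 and 4.97 in IG27. Every IG27 array lay above every WT array, with a log2 fold change of 0.54 (SE 0.07, adjusted p = 6.09e-04), an increase of 45.5%. A second, dim Sox5 probe that was well above background on 1 of 3 WT arrays rose by 1.70 (adjusted p = 0.00176), and the mean of the tested Sox5 probes rose by 1.12. Sox6, on chromosome 7, read 3.43, 3.46 and 3.43 in WT and 3.34, 3.29 and 3.26 in IG27. These values did not overlap, but the difference was small (-0.14, SE 0.05, adjusted p = 0.0288), and with quantile normalization it was 0.02 (adjusted p = 0.630). The call was also lost without WT replicate 1 (-0.15), WT replicate 2 (-0.13), WT replicate 3 (-0.15), IG27 replicate 2 (-0.14) or IG27 replicate 3 (-0.13). The other Sox6 probes gave 0.00 (adjusted p = 0.995) and -0.21 (adjusted p = 0.112), and the direction turned in 1 of 17 other settings. The log2 ratio of Sox5 to Sox6 was 0.69 higher in IG27, with no overlap (exact two-sided permutation p = 0.1), and 1.24 higher with the mean of probes.

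**Figure D2:**
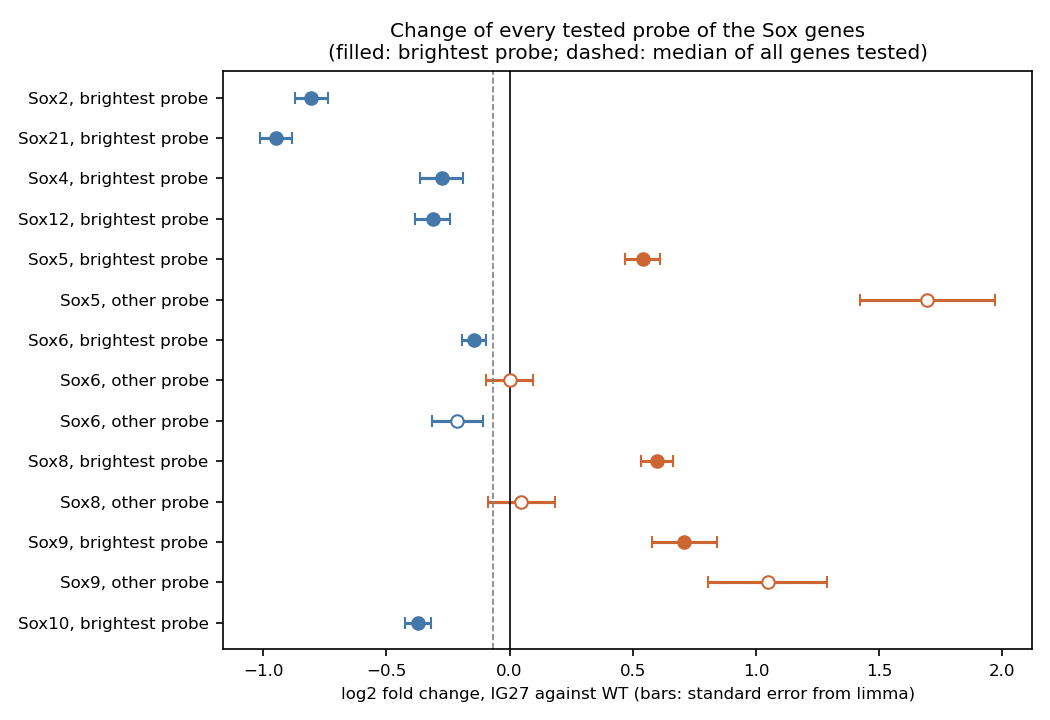
Log2 fold change of IG27 against WT (horizontal axis) for the 14 tested probes of the Sox genes, with the standard error from limma as bars. Filled points are the brightest probe of each gene and open points its other probes: those of Sox5 and Sox9 lie further to the right than the brightest probe, and those of Sox6 and Sox8 include values at or near 0.

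The SoxE genes did not change as a group. Sox10, the lineage factor of oligodendrocytes and Schwann cells on chromosome 15, read 5.74, 5.77 and 5.81 in WT and 5.40, 5.36 and 5.45 in IG27. The arrays of each group lay close together and the groups were apart, with a log2 fold change of -0.37 (SE 0.05, adjusted p = 7.30e-04), a decrease of 1.29-fold. The other two SoxE genes were dim and rose. Sox9, on chromosome 11, stood at -4.11, -4.17 and -4.52 in WT and at -3.41, -3.70 and -3.57 in IG27, without overlap (0.71, SE 0.13, adjusted p = 0.00314). Its second probe rose by 1.05 (adjusted p = 0.00834). Sox8, on chromosome 17 and related to Sox10 in function, read -4.21, -4.15 and -4.22 in WT and -3.53, -3.56 and -3.70 in IG27, also without overlap (0.60, SE 0.06, adjusted p = 2.28e-04). The second Sox8 probe gave 0.05 (adjusted p = 0.773), and the mean of the probes gave 0.32.

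Sox8 and Sox9 were read close to background. Their processed signals were 52.8 to 58.6 units for Sox8 and 43.0 to 61.9 units for Sox9 in WT, against 76.7 to 96.1 and 84.3 to 103.1 units in IG27. The 18651 probes that were not well above background on any flagged array had a median of -7.76 in WT and -7.47 in IG27, so that dim probes as a whole read 0.30 higher in IG27 on this scale. With normexp background correction the differences were 0.25 for Sox8 (adjusted p = 0.0384) and 0.31 for Sox9 (adjusted p = 0.0113), and with quantile normalization 0.37 and 0.48. The normexp setting adds an offset of 50, which by itself shrinks log2 differences between signals this low.

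Ratios within the SoxE genes were compared array by array. The log2 ratio of Sox9 to Sox10 was 1.08 higher in IG27 and that of Sox8 to Sox10 was 0.97 higher, both without overlap between arrays and both with an exact two-sided permutation p of 0.1. Sox8 and Sox9 did not separate from each other, with a ratio change of -0.11 and overlapping arrays (p = 0.5 by the same exact test), although the change was -0.56 with the mean of each gene's probes. Sox4 and Sox12 also overlapped (0.04, exact p = 0.6), with a change of 0.33 under quantile normalization. Over the 6 pairs compared within subfamilies, the lowest p adjusted by the Benjamini-Hochberg method was 0.15. With normexp background correction, whose offset shrinks the changes of the dim Sox8 and Sox9, the ratio changes were 0.62 for Sox9 to Sox10 and 0.55 for Sox8 to Sox10.

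**Figure D3:**
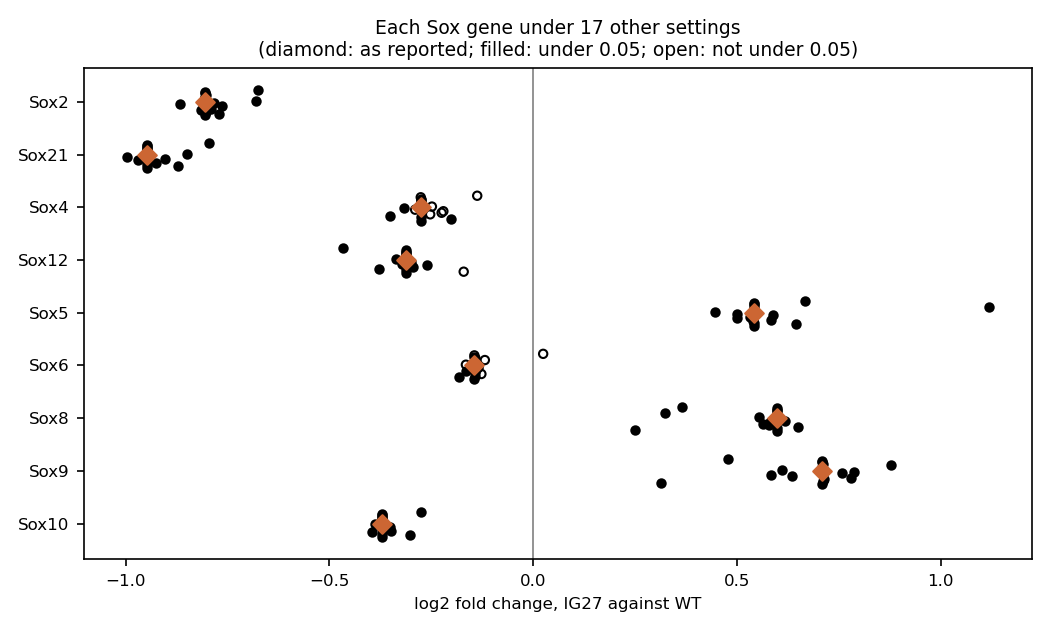
Log2 fold change of each tested Sox gene (horizontal axis) as reported (diamond) and under 17 other settings (circles, filled where p was under 0.05 and open where it was not). Sox2, Sox21, Sox5, Sox8, Sox9 and Sox10 stay on one side of 0 with filled circles throughout, whereas Sox4, Sox12 and Sox6 have open circles and Sox6 crosses 0 once.

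The 10 other Sox genes on the array were followed for comparison. Sox1, a SoxB1 gene like Sox2, read -2.53, -2.55 and -2.53 in WT and -1.78, -1.69 and -1.85 in IG27, a rise of 0.77 (SE 0.06, adjusted p = 4.38e-05). Sox3, the remaining SoxB1 gene, was not well above background on any WT array and was well above it on both flagged IG27 arrays, at least 2.49-fold higher in IG27. The limma adjusted p of 1.15e-05 belongs to the fitted difference, which uses those WT values, and not to this bound. This bound sets the mean of the bright group against the mean, in the other group, of the lowest signal that was well above background on each array. So Sox1 and Sox3 were higher in IG27 while Sox2 and Sox21 were lower. Sox13, a SoxD gene, fell from 0.04, 0.14 and -0.02 to -1.14, -1.26 and -1.31 (log2 fold change -1.29, SE 0.07, adjusted p = 1.05e-05), a larger decrease than that of any of the 9 genes tested. Sox17, an endodermal and endothelial factor, was higher by 0.52 (adjusted p = 0.00773), a call lost with quantile normalization (0.25) and with the slide row as a block (0.31). Sox15 differed by -0.15 (adjusted p = 0.257) and passed only with quantile normalization (-0.32, adjusted p = 0.0392). Sox7, Sox18, Sox30 and Sry were not well above background on any flagged array, and Sox14 was so on 1.

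The nearest tested genes on both sides of each Sox gene were read to see whether the chromosomal surroundings moved with it. Of the 18 neighbours of the 9 tested genes, 6 were called in the direction of the Sox gene, 6 in the other direction and 6 were not called, so that the share called was near the 70.5% of all genes. Beside Sox10, Polr2f (0.68) and Pick1 (0.71) were both higher while Sox10 was lower, and the median of the 611 tested genes of chromosome 15 was 0.30. Beside Sox21, Abcc4 was higher (1.25) and Gpr180 differed by 0.04 (adjusted p = 0.548). The neighbours with the largest differences were Insc, beside Sox6 (5.47), and Bcat1, beside Sox5 (4.92), both several log2 units beyond the Sox gene next to them. Beside Sox9, Map2k6 was higher (1.46) and the noncoding 2610035D17Rik was lower (-0.61), and beside Sox8, Cerox1 was higher (2.12) and Sstr5 differed by -0.10 (adjusted p = 0.346). Beside Sox4, Prl2c1 was higher (2.47), from a WT mean of -6.29 that lay near background. On the other side Cdkal1 was lower (-0.16), a call that was lost without WT replicate 2 or 3 or IG27 replicate 2 or 3 (-0.16 to -0.14). Sox2 and Sox21 were lower than the medians of their chromosomes by 0.49 and 0.66, whereas the change of Sox12 differed from the median of chromosome 2 (-0.34) by 0.03.

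**Figure D4:**
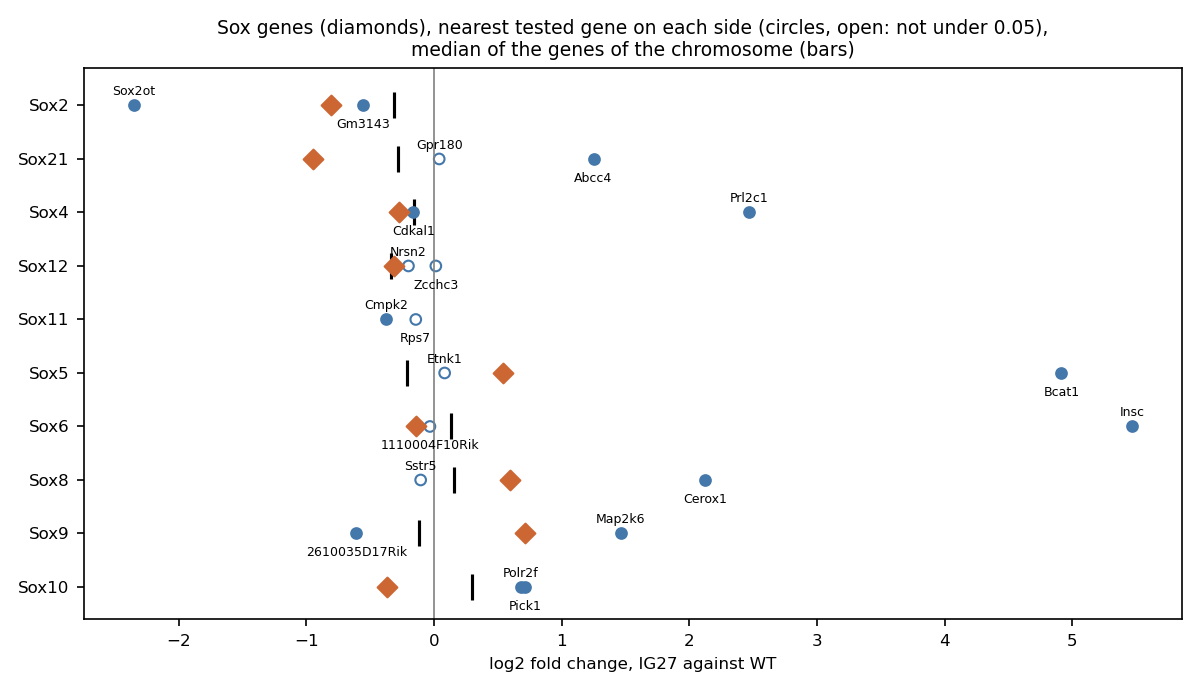
Log2 fold change (horizontal axis) of each Sox gene (diamond), of the nearest tested gene on each side (circles, open where not under 0.05) and of the median gene of the chromosome (bar). Neighbours of Sox5 and Sox6 lie at 4.92 and 5.47, those of Sox10 lie on the opposite side of 0 from Sox10, and Sox11 has no diamond because it was not tested.

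Factors that pair with Sox proteins on DNA were called in both directions. Of 15 tested from a list of 20, 8 were higher and 5 lower, against the 70.5% of all genes called, and the median log2 fold change was 0.66. The POU factor genes Pou3f1 (2.29, SE 0.25) and Pou3f2 (1.98, SE 0.08), whose products join Sox2 and Sox10 at neural and Schwann cell enhancers, were higher. Pou3f3 was at least 10.5-fold lower, as it was well above background on all WT arrays and on neither flagged IG27 array. Ctnnb1, which encodes β-catenin, a binding partner of several Sox proteins, was lower (-0.80, SE 0.08). The median of the tested genes of its chromosome, 9, was -0.64. Pou3f4, Pax6, Nkx2-2, Myrf and Gli2 were not well above background on any flagged array.

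Sox2 was lower. Called genes among those known to be bound by SoxB1 factors in neural stem cells and radial glia went both ways, more of them higher. Of 11 tested from 16, 7 were higher and 2 lower, with a median log2 fold change of 1.84, against 30.5% of all genes higher and 40% lower. Fabp7, Slc1a3 and Hes5 were tested only because they were well above background in IG27, so the filter favoured their rises and they lift this median. When a gene had to be well above background in both groups, 4 were higher. The 2 lower genes, Gfap and Nes, were well above background in both groups. Fabp7, a radial glia fatty acid binding protein, was at least 110-fold higher in IG27, and the glutamate transporter gene Slc1a3 was at least 20.6-fold higher. Gfap, the glial intermediate filament, and Nes, that of neural progenitors, were lower by -1.07 (SE 0.09) and -0.49 (SE 0.04) on the log2 scale.

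Genes bound by SoxC factors in neurons went both ways. Of 10 tested from 15, 3 were higher and 5 lower, with a median of -0.26, and the share called lies near the 70.5% of all genes. Map2, a microtubule protein of dendrites that was well above background on 1 of 3 WT arrays, read -6.71, -6.19 and -5.84 in WT and 1.85, 1.72 and 1.77 in IG27, and Gap43, of growth cones, was at least 1.6-fold higher. Tubb3, neuronal tubulin, was lower (-2.63, SE 0.06) and Stmn2 was at least 5.34-fold lower. Dcx, Neurod1, Neurod2, Neurog2 and Isl1 were not well above background on any flagged array.

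Genes activated by SoxE factors in oligodendrocytes and Schwann cells were also split, with 6 of 17 tested higher, 5 lower and a median of 0.03. The 11 called were 64.7% of those tested, near the 70.5% of all genes. Egr2, the activator of Schwann cell myelination that Sox10 switches on, was 4.78 higher (SE 0.08). Mitf, the melanocyte factor downstream of Sox10, was lower (-2.0, SE 0.07), as was the myelin enzyme gene Cnp (-1.52, SE 0.09). In the cartilage matrix genes that Sox9 activates with Sox5 and Sox6, all 10 tested of 15 were called, 7 higher and 3 lower, with a median of 1.13. Of all genes, 30.5% were higher and 40% lower. Col9a1, Col11a1 and Ucma were tested only because they were well above background in IG27, so the filter favoured their rises and they lift this median. When a gene had to be well above background in both groups, 4 were higher. The 3 lower genes, Col11a2, Matn4 and Cnmd, were well above background in both groups. Col9a1, a cartilage collagen gene well above background on WT replicate 1 alone of the WT arrays, read -4.25, -7.60 and -8.14 in WT and -2.38, -2.52 and -2.89 in IG27, and Ucma was at least 3.85-fold higher, while Cnmd (-1.35, SE 0.12) and Matn4 (-1.14, SE 0.06) were lower. Acan, Matn1, Matn3 and Hapln1, which include the main aggrecan gene of cartilage, were not well above background on any flagged array.

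**Figure D5:**
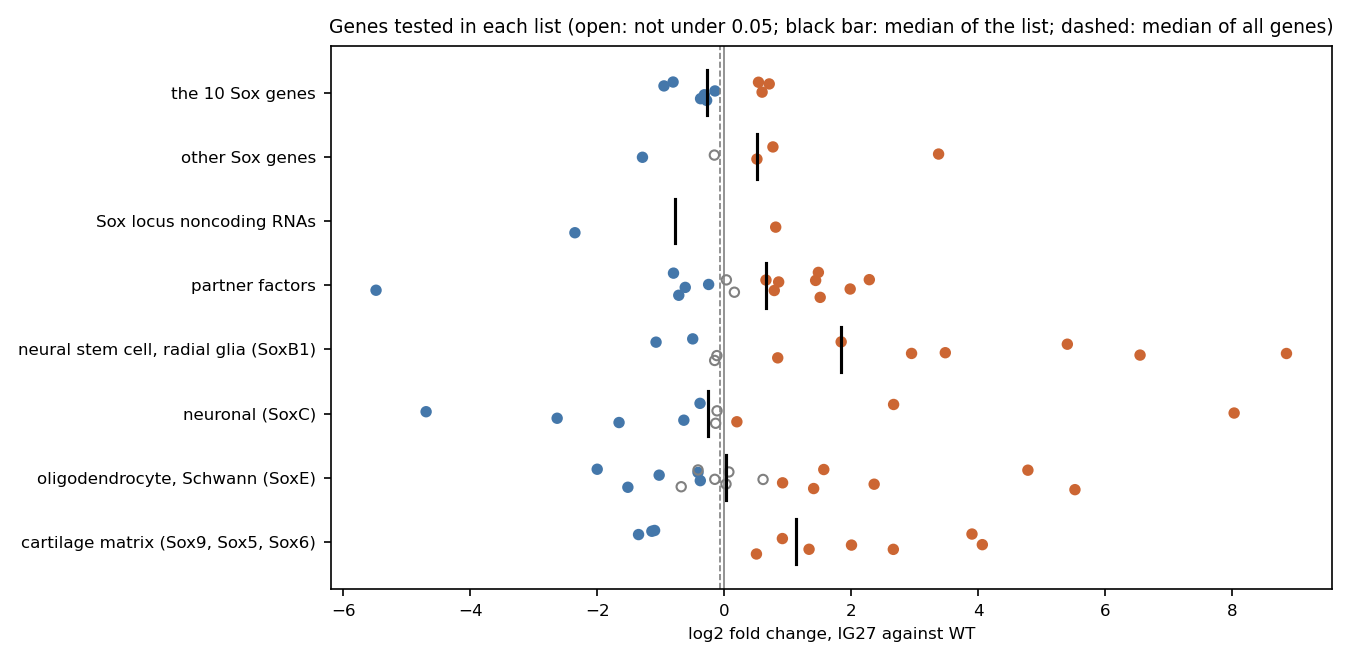
Fitted log2 fold change (horizontal axis) of the tested genes in each list, one point per gene, with orange for higher, blue for lower and open points for genes not called. Black bars are list medians, which run from -0.77 for the noncoding RNAs of Sox loci to 1.84 for the SoxB1 list and stand at -0.28 for the 9 tested Sox genes. Some medians, that of the SoxB1 list among them, include genes that were tested only through their IG27 arrays. Fitted values of genes below background in one group are not bounds.

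The glial label was checked against marker genes, and markers of other cell types were called too. Counts of markers stand beside the 70.5% of all genes called, 30.5% higher and 40% lower. In bulk RNA, fewer cells of a type and less RNA per cell cannot be told apart. Of 6 tested astrocyte markers, 2 were higher and 3 lower, with S100b 4.93 higher and Aldh1l1 at -1.72. Of 7 oligodendrocyte progenitor markers, 4 were higher and 2 lower, among them Gpr17, at least 80.1-fold higher, Pdgfra (2.36), Bcan (-2.05) and Ptprz1 (-1.78). Of 6 oligodendrocyte markers, 1 was higher (Mbp, 0.92, whose probes disagreed in direction) and 3 lower, with Mal (-3.18) and Cldn11 (-3.04), and Mobp was not well above background. Levels were also summed on a linear scale where 1 is the 75th percentile of the array. The oligodendrocyte markers summed to 132.6 to 146.4 in WT and 31.8 to 32.7 in IG27. Such sums rest mostly on the brightest genes and do not speak for a whole list. In WT these were Cldn11 (mean log2 level 6.24) and Mal (5.58) here, while Mog and Mag were not called. Gfap (6.64) was the brightest astrocyte marker and Ngfr (6.60) the brightest Schwann cell and neural crest marker. The astrocyte markers summed to 95.8 to 105.6 and 55.1 to 63.4, and the oligodendrocyte progenitor markers to 31.0 to 33.1 and 24.2 to 24.98. That last sum was lower although the list's median log2 fold change was 1.48. Schwann cell and neural crest markers summed to 102.9 to 110.2 in WT and 52.6 to 54.3 in IG27, with 2 of 5 higher (Tfap2a 0.78) and 2 lower (among them Ngfr, -2.92).

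Among cells that a glial line should lack, neuron markers summed to 18.5 to 20.8 in WT and 7.61 to 8.43 in IG27. Of 4 tested, 0 were higher and 1 was lower, namely Tubb3 (-2.63), the brightest of them in WT. Rbfox3 and Syt1 were not well above background. Microglia markers were 14.6 to 15.6 and 13.9 to 14.4 (3 of 5 higher, among them P2ry12 at 0.49 and Aif1, which was well above background on 1 of 3 WT arrays, and 2 lower, Csf1r at -1.57 and Tmem119 at -0.76), without Cx3cr1 or Ptprc above background. Fibroblast and pericyte markers were 150.03 to 153.9 and 134.5 to 141.9, with 2 of 4 higher (Col3a1 1.57, and Dcn at least 3.32-fold) and 2 lower (Pdgfrb -1.16, Col1a1 -0.92), and Lum below background. Endothelial markers summed to 0.183 to 0.205 in WT and to 3.35 to 3.36 in IG27, with Kdr at least 135-fold and Flt1 at least 39.6-fold higher. Pecam1, the third tested, was lower (-0.27), a call lost without WT replicate 1 or 2 or IG27 replicate 1 or 2 (-0.28 to -0.20). Cdh5, Tek and Cldn5 were not well above background on any flagged array. The part of these shifts in the levels of the Sox genes was not tested.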

How the data were processed

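Total RNA from 6 cell samples (3 WT, 3 IG27) was labelled with Cy3 and hybridized to 1-colour Agilent mouse arrays. The deposited intensity values were background-subtracted by the authors with Agilent Feature Extraction (version 9.1 in the submitters' processing notes). The scanner file of IG27 replicate 2 held 285 of 62976 spots, so its intensities came from the deposited value table, where 255 of 255 shared probes were equal within 1e-04, and it carries no flags. That table exchanges WT replicates 2 and 3, and the scanner files were followed. Log2 intensity minus each array's 75th percentile was fitted with limma (version 3.58.1, R 4.3.3) without covariates, with Benjamini-Hochberg adjustment over 14894 genes. The fit was run on simulated data in which only a small part of the genes was shifted, after scaling. That does not check the scaling, or calling where 70.5% of genes are called. Control and outlier spots were left out. A probe was tested if it was well above background on every flagged array of at least 1 group, and the brightest tested probe stood for its gene. Probes were named through RefSeq accessions (32989 of 56605). Intervals and folds rest on 3 arrays a group, which limits their precision. The 10 genes and all lists were chosen with earlier results of these data known. From each list, at most the 2 largest rises and 2 largest falls were named, together with all other Sox genes, the genes beside each Sox gene and H3f3a, and some genes under this rule are not reported here. Alternatives were quantile normalization, no filter on dim probes or a stricter one, all outlier spots retained, probe means, a trended prior, blocks for replicate number or slide row, each array left out, the value table by label, normexp with an offset of 50, the unadjusted p of the methods, and no floor. Protein sequences were not used here.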

Additional observations from a re-analysis of the deposited data

How the results depend on the processing

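In 17 alternatives, 3 Sox genes were higher throughout and 4 to 6 were lower, while 8943 to 10852 genes were called in all. With 1 array left out at a time, the number of lower Sox genes was 4 to 5 and that of all calls 9796 to 10159. The replicate numbers did not pair the arrays (correlations of deviations 0.01, 0.04 and 0.08 between arrays of the same number), and with the replicate block 10306 genes were called, with 3 Sox genes higher and 5 lower, since Sox6 was lost (adjusted p = 0.0679). With the slide row as a block, 4 were lower, without Sox4 (adjusted p = 0.171) and Sox6 (adjusted p = 0.0893), and Tfap2a did not pass. Signs that turned were those of Sox6 (0.0244) and 1110004F10Rik beside it (0.13) with quantile normalization, of Mbp (-0.21), Cdkal1 (0.10) and Etnk1, beside Sox5 (-0.15), with the mean of probes, and of Zcchc3, beside Sox12, with the slide row (-0.23), without WT replicate 1 (-0.24) and without IG27 replicate 3 (-0.02), within a range of -0.24 to 0.15 over the arrays left out. The ratio change of Sox4 to Sox12 turned without WT replicate 1 (-0.0041) and with normexp (-0.0318). The causes were not tested. Where a gene had to be well above background in both groups, 9578 genes were called, and fewer list genes remained testable: 1 higher and 3 lower of the SoxC list, 4 higher of the SoxB1 list and 4 higher of the cartilage list. The median of all genes moved from -0.07 to 0.12 with no filter on dim probes. Signal over background limits Sox8, Sox9, Sox11 and Sox12 most.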
